A study of Mus musculus with 8 samples.

Results

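The endocannabinoid receptor and its enzymes were followed here as 6 genes taken by symbol, Cnr1, Dagla, Daglb, Napepld, Mgll and Faah, and all 6 were present among the 15519 genes measured. The material was nuclear RNA of pyramidal cells from the hippocampus of WT mice, sequenced from cells whose spatial firing had been imaged in the living animal and whose nuclei were then marked with light and collected. There were 4 libraries of Recurring place cells and 4 libraries of Day 0 place cells, and the labels name these classes without defining them. Each title carries its own mouse number, and no other label states whether the animals differed. The p-values below therefore measure only the spread between these 8 libraries, which may be technical.

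Endocannabinoids are lipids that carry a signal backwards across the synapse. A strongly stimulated postsynaptic neuron makes 2-arachidonoylglycerol or anandamide from its membrane lipids, and the lipid activates the CB1 receptor on the presynaptic terminal, which then releases less transmitter. In the hippocampus CB1 is known to be dense on the terminals of interneurons that make cholecystokinin and to be present at a lower level on glutamatergic terminals of pyramidal cells.

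Total depth was 8613854 to 14887866 reads in Recurring libraries and 8374987 to 11789782 reads in Day 0 libraries. Values are normalized counts, which are whole reads divided by a size factor for each library, or log2 of the normalized count plus 1. A gene was tested where 4 libraries or more had a normalized count of at least 10, and 11078 genes passed. Of the 6 endocannabinoid genes 5 passed, and Daglb did not. All 10 markers listed for pyramidal neurons, the labelled cell type, were present, and their summed normalized count was 28893 to 49065 in Recurring and 30601 to 43679 in Day 0 libraries. Slc17a7, which loads glutamate into synaptic vesicles, had reads in every library. The libraries also differed in a way the groups do not: Recurring replicates 1 and 2 and Day 0 replicates 1 and 2 held 9072 to 15633 reads of the X-inactivation RNA Xist, and the other 4 libraries held at most 67. The Y-linked genes Ddx3y, Eif2s3y, Uty and Kdm5d had 0 reads in the 4 libraries rich in Xist. Together they had 11840 to 17596 reads in each of the other 4, so the 2 sets differed in X and Y transcripts alike. The labels give no sex, and no batch.

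None of the 6 genes differed between Recurring and Day 0 cells beyond the spread between libraries. In the limma fit over all genes, 0 of the 11078 genes tested had an adjusted p under 0.05, a share of 0%, and 401 genes, or 3.62%, had an unadjusted p under 0.05. No endocannabinoid gene was among those 401. The groups overlapped for all 6 genes, and over all genes tested 267, or 2.41%, had groups that did not overlap. With shares this small, none of 6 genes is an ordinary outcome, so neither count sets the members apart from other genes. Differences are Recurring minus Day 0 on the log2 scale, with limma's standard error and 95% confidence interval.

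**Figure D1:**
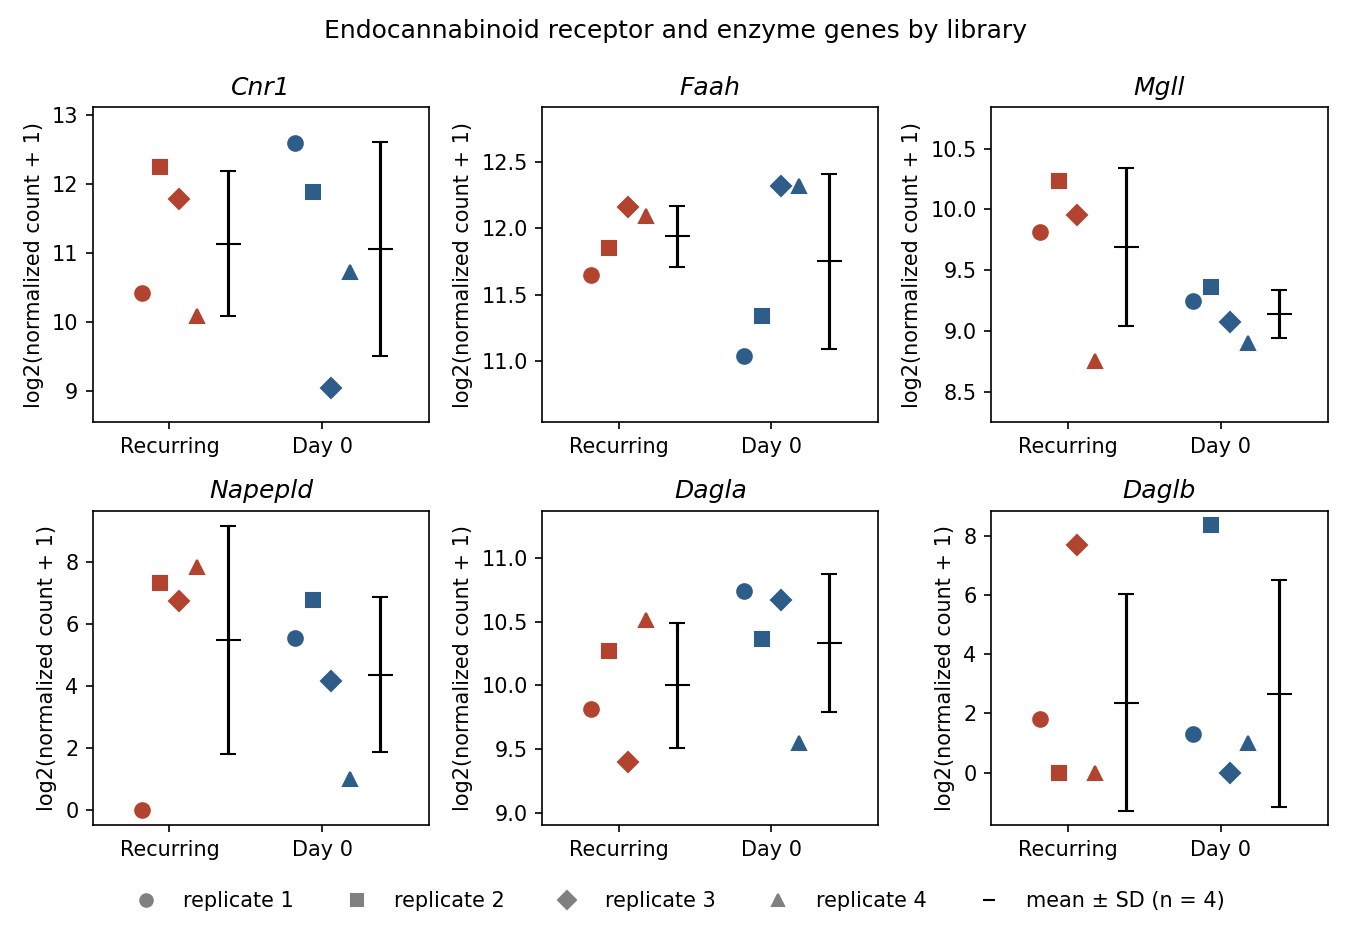
Each panel plots log2(normalized count + 1) of 1 gene in the 4 Recurring and the 4 Day 0 libraries, with marker shape giving the replicate and a bar giving the mean ± SD of each group (n = 4). The groups overlap in every panel, Faah, Mgll and Dagla stay within 1 unit of their mean, and Napepld and Daglb run between 0 and about 8.

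Cnr1 encodes CB1, the receptor of both lipids in the brain and the only receptor among these 6 genes. It was read in every library, at 2218, 6025, 3330 and 1063 reads in Recurring replicates 1 to 4 and at 8338, 4722, 442 and 1688 reads in Day 0 replicates 1 to 4. As normalized counts these were 1374, 4864, 3528 and 1078 in Recurring libraries and 6199, 3766, 528 and 1692 in Day 0 libraries. Day 0 held both the highest and the lowest library, 11.7-fold apart, and the Recurring libraries all lay between them. The mean log2 level was 11.13 ± 1.05 in Recurring and 11.06 ± 1.55 in Day 0 cells (SD, n = 4 each), a difference of 0.07 (SE 0.68, limma adjusted p 0.998). The two-sided exact permutation p was 0.971, where the smallest that 4 against 4 libraries allow is 0.0286.

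The interval of the Cnr1 difference ran from −1.37 to 1.51, so folds from 0.387 to 2.85 stayed within it. The sign of the difference was not stable, being −0.30 when Recurring replicate 2 was left out, −0.15 when Recurring replicate 3 was, −0.60 when Day 0 replicate 3 was and −0.04 when Day 0 replicate 4 was. In pooled nuclei, fewer cells carrying a transcript and less transcript per cell cannot be told apart.

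Markers of interneurons, the cells known for the most CB1, were uneven between libraries. The summed normalized count of 10 interneuron markers, out of 14 on the list, was 1542, 12317, 4595 and 1502 in Recurring replicates 1 to 4 and 3508, 791, 931 and 216 in Day 0 replicates 1 to 4. Gad1, which makes the transmitter GABA, had 6, 5740, 768 and 0 reads in Recurring libraries and 1304, 239, 501 and 0 reads in Day 0 libraries. Slc32a1, which loads GABA into vesicles, was at 0 in 5 of the 8 libraries. Recurring replicates 2 and 3 and Day 0 replicate 1 were high in both Cnr1 and the interneuron markers. Cnr1 was also high in Day 0 replicate 2, at 3766, where the marker sum was only 791. In Day 0 replicate 4, where both Gad1 and Gad2 had no read, Cnr1 stood at 1692. The part of interneuron RNA in the Cnr1 values was not tested.

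**Figure D2:**
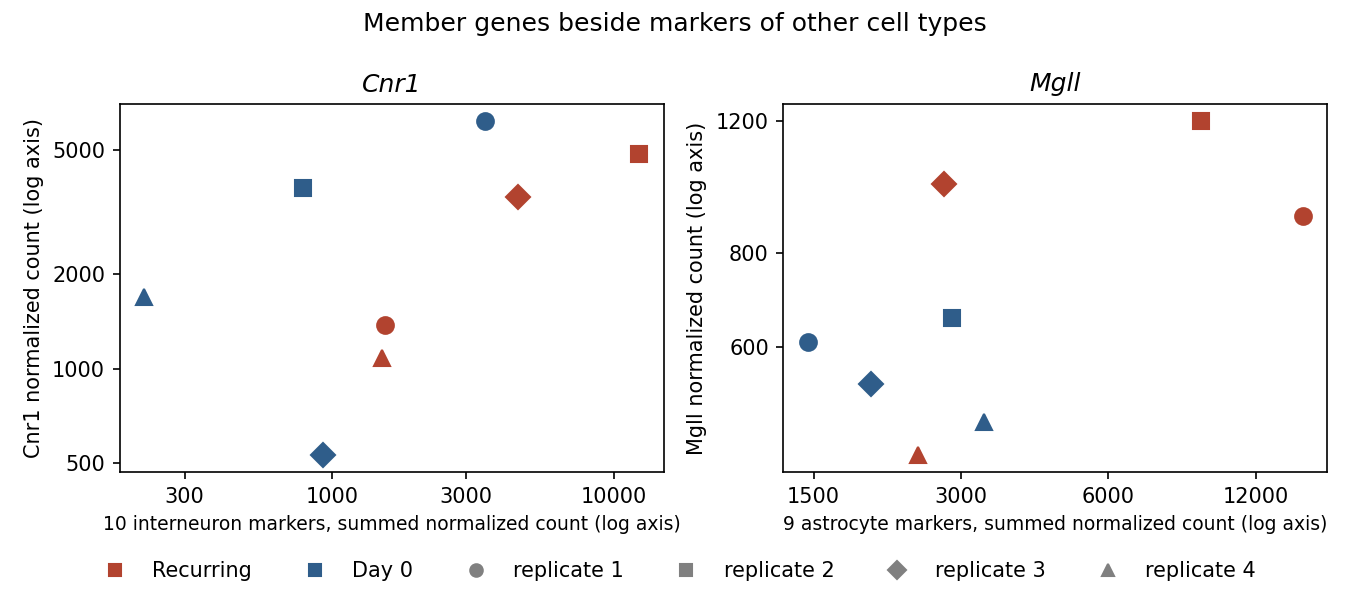
The left panel sets the Cnr1 normalized count of each library against the summed normalized count of 10 interneuron markers, and the right panel sets Mgll against the sum of 9 astrocyte markers, all on log axes, with Recurring and Day 0 libraries in separate colours. The library highest in interneuron markers, Recurring replicate 2 at 12317, held 4864 Cnr1, and the library lowest in them, Day 0 replicate 4 at 216, held 1692.

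Diacylglycerol lipases make 2-arachidonoylglycerol from diacylglycerol, and the alpha form, Dagla, is the main one for retrograde signalling in the adult brain. Dagla had 1452, 1532, 635 and 1437 reads in Recurring replicates 1 to 4, against 2291, 1642, 1359 and 748 reads in Day 0 replicates 1 to 4. Its normalized counts were 899, 1237, 673 and 1458 in Recurring and 1703, 1309, 1624 and 750 in Day 0 libraries. Recurring replicate 4 and Day 0 replicates 1 to 3 were the highest, and Recurring replicate 3 was the lowest. The mean log2 level was 10 ± 0.49 in Recurring and 10.33 ± 0.54 in Day 0 cells (SD, n = 4 each), a difference of −0.33 (SE 0.56, interval −1.5 to 0.85, limma adjusted p 0.998). The exact permutation p was 0.371. The difference was −0.13 when Recurring replicate 3 was left out and −0.59 when Day 0 replicate 4 was.

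Daglb, the beta form, was read almost only in 2 libraries. There were 4, 0, 195 and 0 reads in Recurring replicates 1 to 4 and 2, 408, 0 and 1 reads in Day 0 replicates 1 to 4. The 195 reads of Recurring replicate 3 have an exact Poisson interval of 169 to 224 and the 408 reads of Day 0 replicate 2 one of 369 to 450, covering counting error only, as do the other count intervals here. Each group thus held 1 library with many Daglb reads and 3 with at most 4. Where no read was seen, the limit of 3 reads corresponds to a normalized count of 2.42 in Recurring replicate 2, 3.04 in Recurring replicate 4 and 3.58 in Day 0 replicate 3. This limit too covers counting error only. Without the filter on low values, its log2 difference was −0.29 (SE 2.25, interval −5.02 to 4.43, limma adjusted p 0.997), and it was 0.50 when Recurring replicate 2 or 4 was left out and 1.60 when Day 0 replicate 2 was.

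The 2 lipases were therefore unequal in every library. Dagla took 99.7%, 100%, 76.5% and 100% of the reads of the pair in Recurring replicates 1 to 4, and 99.9%, 80.1%, 100% and 99.9% in Day 0 replicates 1 to 4. The Wilson 95% interval was 73.5 to 79.3% for Recurring replicate 3 and 78.3 to 81.8% for Day 0 replicate 2. Read shares are not corrected for gene length, and the exons of Daglb add up to 9567 bases against 5747 for Dagla.

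Mgll encodes monoacylglycerol lipase, which breaks down most 2-arachidonoylglycerol in the brain. It had 1446, 1489, 935 and 424 reads in Recurring replicates 1 to 4 and 820, 822, 448 and 475 reads in Day 0 replicates 1 to 4. The normalized counts were 896, 1202, 990 and 430 in Recurring libraries and 610, 656, 535 and 476 in Day 0 libraries. Recurring replicates 1 to 3 lay above every Day 0 library, and Recurring replicate 4 lay below every one. The mean log2 level was 9.69 ± 0.65 in Recurring and 9.14 ± 0.20 in Day 0 cells (SD, n = 4 each), a difference of 0.54 (SE 0.67, interval −0.88 to 1.96, limma adjusted p 0.998). The exact permutation p was 0.171. The difference kept its sign without each library in turn, from 0.36 without Recurring replicate 2 to 0.86 without Recurring replicate 4.

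Astrocytes also express Mgll, and their markers were high in part of the same libraries. The summed normalized count of 9 astrocyte markers, out of 10 on the list, was 14974, 9288, 2770 and 2451 in Recurring replicates 1 to 4 and 1462, 2880, 1968 and 3339 in Day 0 replicates 1 to 4. Recurring replicates 1 and 2 had both high marker sums and high Mgll, while Recurring replicate 3 had 990 Mgll with a marker sum inside the Day 0 range. The markers did not all go the same way. In Recurring replicate 1, 8162 of the sum came from Slc1a3. Gfap was lowest there, at a normalized count of 34.1 against 334 to 937 in the other libraries. Aldoc, at 813 there, lay inside the range of the other libraries, 539 to 1382. Sox9 had no read in 4 libraries and Gja1 none in 1. The part of astrocyte RNA in the Mgll values was not tested. Oligodendrocyte markers summed to 1437 to 7392 in Recurring and 1403 to 12071 in Day 0 libraries, and the 5 microglial markers present to 507 to 6056 in Recurring and 213 to 707 in Day 0 libraries. For 5 dentate granule cell markers the sums were 2692 to 8176 in Recurring and 2972 to 6202 in Day 0 libraries. Most of these sums came from Rfx3, with 1413 to 6870 reads over the 8 libraries, and Calb1, with 615 to 3945. The other markers were lower and uneven: Prox1 reached 917 reads but had none in 2 libraries, and C1ql2 and Stxbp6 had none in 3 each. The part of granule cell RNA was not tested.

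The second lipid, anandamide, has its own pair of enzymes. Napepld encodes the phospholipase D that releases anandamide and related N-acylethanolamines from membrane precursors, and Faah encodes the hydrolase that breaks them down. The RefSeq promoter windows of this pair, 250 bases before to 50 bases after the gene start, are shown because 1 window is listed for each and because Faah was read evenly over the libraries and Napepld was not. Both are written 5′ to 3′ on the gene's strand, with GC boxes (GGGCGG, or CCGCCC on the other strand) in capitals. The build is GRCm38.p6, while the study aligned to GRCm39.
Faah, chr4:116017875-116018174, minus strand: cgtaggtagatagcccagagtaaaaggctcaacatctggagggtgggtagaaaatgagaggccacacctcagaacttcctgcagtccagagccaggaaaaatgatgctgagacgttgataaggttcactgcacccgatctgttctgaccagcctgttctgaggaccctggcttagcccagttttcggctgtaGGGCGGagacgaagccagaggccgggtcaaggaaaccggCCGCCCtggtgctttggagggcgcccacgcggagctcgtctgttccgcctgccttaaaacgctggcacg
Napepld, chr5:21701573-21701872, minus strand: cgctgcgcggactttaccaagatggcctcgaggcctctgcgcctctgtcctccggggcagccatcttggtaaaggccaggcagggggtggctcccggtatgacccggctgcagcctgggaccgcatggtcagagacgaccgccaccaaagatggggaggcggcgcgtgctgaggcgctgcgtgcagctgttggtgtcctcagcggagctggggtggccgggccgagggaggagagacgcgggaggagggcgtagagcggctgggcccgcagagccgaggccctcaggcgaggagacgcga
The Faah window held 2 GC boxes and 16 CpG dinucleotides, and the Napepld window held 0 GC boxes and 28 CpG dinucleotides. Of 32851 promoter windows in the same table, 35.7% held a GC box on either strand, and the median number of CpG dinucleotides was 7. Neither window held the TATA box letters TATAAA on either strand, which 13.6% of all windows hold. These are descriptions of the letters, and no reading of the libraries rests on them.

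Napepld was at the limit of detection in some libraries and well above it in others. It had 0, 199, 101 and 226 reads in Recurring replicates 1 to 4 and 62, 136, 14 and 1 reads in Day 0 replicates 1 to 4. The normalized counts were 0, 161, 107 and 229 in Recurring libraries and 46.1, 108, 16.7 and 1 in Day 0 libraries. Recurring replicates 2 and 4 were above every Day 0 library. Recurring replicate 1, the deepest library of all, had no read, which by counting error alone allows a normalized count of up to 1.86. That limit does not cover transcripts lost before sequencing. Recurring replicate 1 had reads of 10904 genes, against 13807 in Day 0 replicate 2, and only 54.4% of the 11078 genes tested had reads in all 8 libraries. The mean log2 level was 5.48 ± 3.68 in Recurring and 4.37 ± 2.49 in Day 0 cells (SD, n = 4 each), a difference of 1.11 (SE 2.44, interval −4.04 to 6.27, limma adjusted p 0.998). The exact permutation p was 0.571. Single libraries set the size of this value, which was 2.92 without Recurring replicate 1 and −0.02 without Day 0 replicate 4.

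Faah was the most evenly read of the 6 genes. It had 5205, 4566, 4331 and 4284 reads in Recurring replicates 1 to 4 and 2832, 3257, 4272 and 5086 reads in Day 0 replicates 1 to 4. Normalized counts were 3224, 3686, 4588 and 4346 in Recurring and 2106, 2597, 5105 and 5098 in Day 0 libraries. The Recurring libraries sat together between a low and a high pair of Day 0 libraries, and the highest and lowest of the 8 were 2.42-fold apart. The mean log2 level was 11.94 ± 0.23 in Recurring and 11.75 ± 0.66 in Day 0 cells (SD, n = 4 each), a difference of 0.18 (SE 0.39, interval −0.63 to 1.0, limma adjusted p 0.998). The exact permutation p was 0.629. This was the narrowest interval of the 6, reaching folds of 0.645 to 2.00, and the difference was −0.07 without Day 0 replicate 1.

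**Figure D3:**
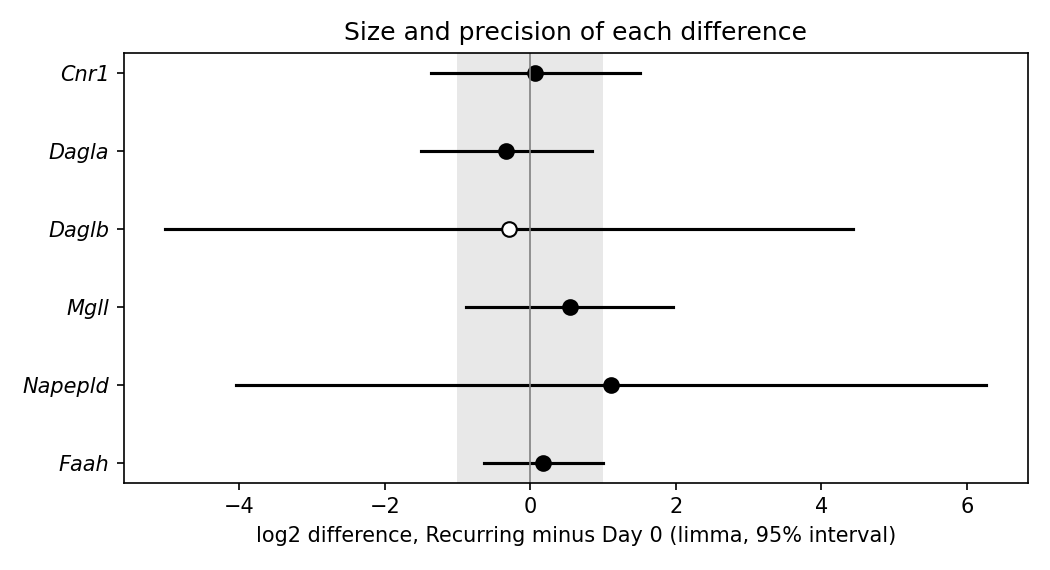
Points give each gene's log2 difference, Recurring minus Day 0, and lines its 95% interval from limma, with the receptor at the top, then each lipid's synthesis and breakdown enzymes, and an open point for Daglb, which was fitted without the filter on low values. Grey shading marks a change of less than 1 log2 unit either way; all 6 intervals include 0, and those of Napepld and Daglb reach beyond 4 units.

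Within the libraries that shared the Xist state, 2 per group in each, the differences of 4 genes took opposite signs. Among the 4 libraries with Xist reads, Recurring minus Day 0 was −0.90 for Cnr1, 0.56 for Faah, −2.50 for Napepld and −3.93 for Daglb. In the other 4 libraries it was 1.04 for Cnr1, −0.19 for Faah, 4.73 for Napepld and 3.35 for Daglb. The sign was shared for Mgll, at 0.71 with Xist reads and 0.37 without, and for Dagla, at −0.50 and −0.16. These are means of 2 libraries and carry no test. The Faah level itself did not overlap between the 4 libraries with Xist reads, at log2 levels of 11.04 to 11.85, and the other 4, at 12.09 to 12.32, while the other 5 genes did overlap. Of all genes tested, 416, or 3.76%, did not overlap between these sets of libraries, which were formed after the data were seen, and the part of the split in the Faah values was not tested.

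Compared per kilobase of exon, the 6 genes fell into a high and a low set. The normalized count per kilobase averaged 506 ± 79.4 in Recurring and 476 ± 204 in Day 0 cells for Faah, and 421 ± 280 in Recurring and 473 ± 387 in Day 0 cells for Cnr1 (SD, n = 4 each). Dagla followed at 186 ± 60.7 in Recurring and 234 ± 75.3 in Day 0 cells, and Mgll at 173 ± 64.2 in Recurring and 112 ± 15.6 in Day 0 cells. Napepld was at 31.4 ± 24.5 in Recurring and 10.9 ± 12 in Day 0 cells, and Daglb at 5.46 ± 10.8 in Recurring and 8.57 ± 17.0 in Day 0 cells. Neighbours within the high set could not be ranked, since Faah exceeded Cnr1 in 5 of 8 libraries, Cnr1 exceeded Dagla in 6 and Dagla exceeded Mgll in 5. Mgll exceeded Napepld in 8 of 8 libraries, by a log2 difference of 3.67 ± 2.26 in the level per kilobase (SD, n = 8 libraries). Napepld exceeded Daglb in 6 of 8, by 2.12 ± 2.55 on the same scale, a mean smaller than its SD. Among those 6 was Day 0 replicate 4, where each gene had 1 read and the order came from the exon lengths.

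The spread between libraries separated the genes more than the groups did. Over all 8 libraries the SD of the log2 level was 0.47 for Faah, 0.51 for Dagla, 0.53 for Mgll, 1.22 for Cnr1 and 2.97 for Napepld, beside a median of 2.42 over the 11078 genes tested. Spread falls with level, so each gene was set beside the tested genes within 0.5 log2 units of its own mean. For Cnr1, 4.07% of 664 such genes had a larger SD, and their median was 0.68. For Mgll, 95% of 1423 such genes had a larger SD, for Dagla 89.8% of 1086, for Napepld 77.2% of 1249 and for Faah 68.6% of 354. Cnr1 was thus uneven for a gene of its level, and Mgll and Dagla were even for theirs.

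**Figure D4:**
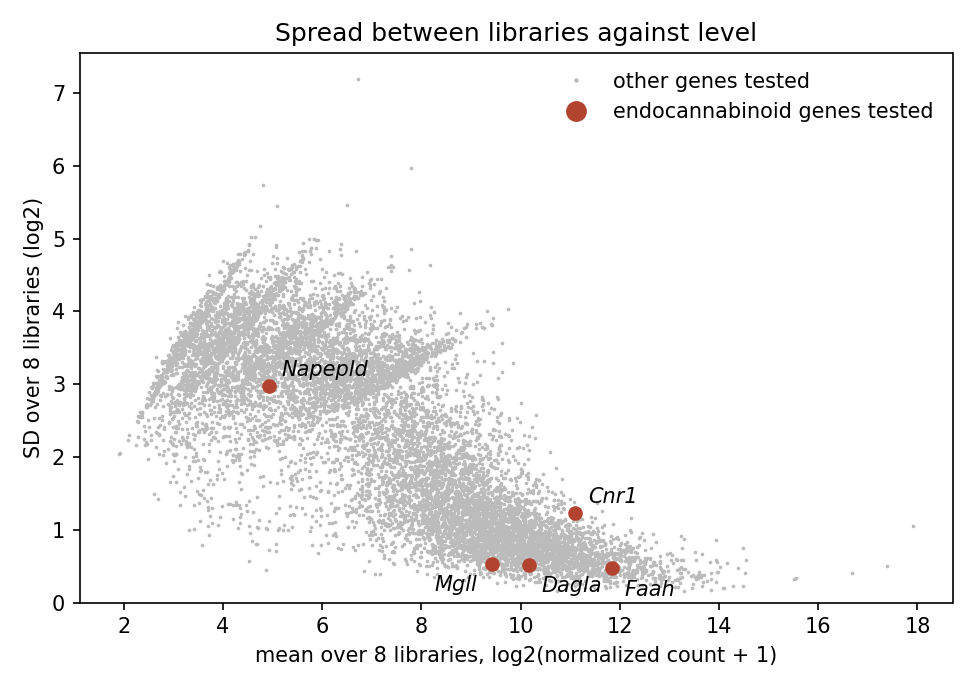
Each grey point is 1 of the genes tested, with its mean log2(normalized count + 1) over 8 libraries on the horizontal axis and the SD over the same libraries on the vertical axis, and red points mark the 5 endocannabinoid genes that passed the filter. Cnr1, at an SD of 1.22, lies at the upper edge of genes of its level, and Mgll and Dagla, at 0.53 and 0.51, lie near the lower edge.

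Genes whose profile over the 8 libraries was most like that of a member were found by the root mean square difference of log2 levels, each centred on its own mean. Predicted genes, Rik clones and genes with a mean more than 4 log2 units below that of the member were left out. For Cnr1 these were Top1, a DNA topoisomerase, at 0.40, and Rad52, a DNA repair gene, at 0.53, where the median of 5488 genes compared was 1.57. For Faah they were Cstf3, a cleavage factor of mRNA 3′ ends, at 0.14 and Hdac3, a histone deacetylase, at 0.20, with a median of 1.03 over 4511 genes. Mgll lay nearest to Birc6, an inhibitor of apoptosis, at 0.23 and to U2surp, a splicing factor, at 0.26 over 7352 genes, with a median of 1.5. Dagla lay nearest to Slc24a3, a sodium, potassium and calcium exchanger, at 0.20 and to Slc12a5, the neuronal potassium and chloride cotransporter KCC2, at 0.27, over 6552 genes with a median of 1.34. These genes were picked for the smallest values, so they lie below the median by choice, and no test was made of the likenesses.

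None of the other listed genes of endocannabinoid metabolism and signalling passed the same test. Of 24 on the list, 15 were in the table and 11 were tested, of which 6 had a difference above 0 and 5 below it, with a median of 0.16. Over all genes tested 50.1% had a difference above 0 and the median was 0.00. No member of this list had an adjusted p or an unadjusted p under 0.05, and none had groups that did not overlap. Gdpd3, Pla2g4e, Ptgs2 and Gpr18 were below the filter, and 9 genes, including Cnr2, Trpv1 and Fabp7, were not analysed here.

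Among these, Sgip1, whose protein binds CB1 and slows its internalization, had the smallest p of those with a positive difference. It had 7952, 5441, 2840 and 2122 reads in Recurring replicates 1 to 4 and 3415, 2813, 1800 and 2165 reads in Day 0 replicates 1 to 4. The log2 level was 11.75 ± 0.54 in Recurring and 11.15 ± 0.11 in Day 0 cells (SD, n = 4 each), a difference of 0.60 (SE 0.40, limma adjusted p 0.981). Cnrip1, another protein that binds the CB1 tail, differed by 0.75 (SE 0.54, limma adjusted p 0.981). Abhd12, a serine hydrolase that can cleave 2-arachidonoylglycerol, differed by −0.80 (SE 0.72, limma adjusted p 0.981) and was lowest in Recurring replicate 3, with 167 reads. Abhd6, a further hydrolase of this lipid, differed by −0.05 (SE 0.64), with 714 to 2828 reads in Recurring and 789 to 1742 reads in Day 0 libraries.

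Abhd4 and Gde1 act on an alternative route to anandamide. Abhd4 had 974, 42, 49 and 841 reads in Recurring replicates 1 to 4 and 21, 108, 62 and 0 reads in Day 0 replicates 1 to 4, with a difference of 3.27 (SE 2.24, limma adjusted p 0.981). Recurring replicates 1 and 4 were high, and the other 6 libraries had at most 108 reads. Gde1 differed by 0.16 (SE 0.67). Ptgs2, the cyclooxygenase that oxidizes both lipids and is induced by neuronal activity, had 26, 8632, 2 and 6 reads in Recurring libraries and 397, 6, 0 and 0 reads in Day 0 libraries. Nearly all of its reads thus came from Recurring replicate 2.

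Upstream of the diacylglycerol lipases, receptors that couple to Gq switch on phospholipase C beta, which supplies the diacylglycerol. Of 13 genes on that list 12 were tested, 6 with a positive and 6 with a negative difference, with a median of −0.04, and none had an adjusted or unadjusted p under 0.05. Grm5, the metabotropic glutamate receptor that drives this path in pyramidal cells, had 13107 to 18377 reads in Recurring and 14043 to 18424 reads in Day 0 libraries. Its difference was −0.17 (SE 0.25, interval −0.70 to 0.35, limma adjusted p 0.998), so a change of more than 1 log2 unit lay outside the interval. The G protein subunit Gnaq differed by 0.09 (SE 0.47) and Plcb1, the main phospholipase C beta of hippocampal pyramidal cells, by 0.70 (SE 0.86). The muscarinic receptor Chrm1 differed by 0.58 (SE 0.66). Homer1, which ties these receptors to the synaptic scaffold, differed by −1.83 (SE 1.09, limma adjusted p 0.981), with 37, 4243, 738 and 1571 reads in Recurring replicates 1 to 4 and 1991, 3451, 1597 and 2080 reads in Day 0 replicates 1 to 4. Its low value was that of Recurring replicate 1, at a log2 level of 4.58. The other Recurring libraries stood at 9.61 to 11.74 and the Day 0 libraries at 10.53 to 11.43. The size of the difference thus rested mainly on Recurring replicate 1. Without Recurring replicate 2, its highest library, the Homer1 difference was −2.69 (SE 1.08, limma adjusted p 0.995). Of the fits without single libraries, only that one gave a gene of this list an unadjusted p under 0.05.

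Downstream of CB1, Gi and Go proteins inhibit adenylyl cyclase and presynaptic calcium channels and open inwardly rectifying potassium channels. All 21 genes on that list were tested, 11 with a positive and 10 with a negative difference, with a median of 0.15, and none passed an adjusted or unadjusted p of 0.05. Kcnj6, a subunit of those potassium channels, had 2720, 544, 759 and 1022 reads in Recurring replicates 1 to 4 and 1636, 1336, 2924 and 2541 reads in Day 0 replicates 1 to 4. Its difference was −1.06 (SE 0.60, limma adjusted p 0.981), and its groups overlapped through Recurring replicate 1. Without that library, the highest Recurring one, the Kcnj6 difference was −1.38 (SE 0.60, limma adjusted p 0.93). Grk3, a kinase that turns off activated receptors, differed by 1.45 (SE 0.97, limma adjusted p 0.981), with 7159 reads in Recurring replicate 1 and 97 to 1216 in the other 7 libraries. On the log2 scale Recurring replicate 1 stood at 12.11 and the other 7 libraries at 6.62 to 10.33, so much of the Grk3 difference came from that library. Without Recurring replicate 4, the lowest Recurring library, the Grk3 difference was 2.21 (SE 0.90, limma adjusted p 0.977). The fits given for Kcnj6 and Grk3 without a library are those where the limma unadjusted p fell under 0.05.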

How the data were processed

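The deposited table holds 1 scaled signal value per gene and library for 15519 genes and 8 libraries of nuclear RNA. Per the labels' protocols, the kit was SMART-Seq mRNA LP, and STAR, HTSeq and GRCm39 are named in the submitters' processing notes without versions. Within each gene the deposited signal was a whole number of reads times a constant of that gene (median 1.11, 1st percentile 0.218, 99th percentile 7.72), so it carried no correction for depth. The constants matched trimmed-mean factors computed with genes in place of libraries, to within 0.001 on the log2 scale, for 15515 genes. Dividing them out gave whole reads, to 0.1 read, for 95910 of 95910 values above 0. This step was tested on data simulated with the same scaling. That checks the inversion, and not how the deposited values were scaled. How the scaling was done is not given in the sources used here.

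Size factors by the median of ratios (0.837 to 1.61) were divided out of the reads. Recurring was compared with Day 0 on log2(normalized count + 1) with limma (version 3.58.1, under R 4.3.3), using its variance trend, and Benjamini-Hochberg adjustment over all 11078 genes tested, at a threshold of 0.05. The added 1 can understate a fold change of low genes. Daglb and Ptgs2, below the filter, were fitted without it. Single genes were also compared by a two-sided exact permutation test over 70 assignments. Replicates are numbered in the order of deposit. Exon lengths came from GENCODE vM21 and promoters from RefSeq, both on GRCm38, and no other position was used.

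The members, the gene and marker lists and the rule for named genes were chosen with earlier results of these data known. The rule took the 6 members, list genes with an adjusted p under 0.05, otherwise the tested list gene with the smallest p in each direction, a set of genes with a role on a member's path, and the 2 genes nearest in profile to each member read in all 8 libraries. A gene that the rule takes is not reported here. Alternatives were other pseudocounts (0.5 and 5), no filter, total-count and trimmed-mean scaling, the deposited values, limma without the trend, voom, leaving out each library and, added after the data were seen, a term for libraries with over 1000 Xist reads.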

Additional observations from a re-analysis of the deposited data

Results flagged for a closer look

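In 42 groups of 4 libraries checked, 3 had a library whose gap to its nearest neighbour, divided by the range of the group, was above Dixon's critical value for groups of this size. Chance gives about 1 such library in 20 groups. Napepld was at a log2 level of 0.00 in Recurring replicate 1, with the other Recurring libraries at 6.75 to 7.85. Daglb was at 8.35 in Day 0 replicate 2, with the other Day 0 libraries at 0.00 to 1.31. Grm5 was at 13.29 in Recurring replicate 1, with the other Recurring libraries at 13.76 to 13.86.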

How the results depend on the processing

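No paired analysis was possible because the replicate numbers follow the order of deposit and pair no libraries. Under the planned settings no gene passed the adjusted threshold, except without a variance trend, where 2 genes did, a Rik clone and a predicted gene on none of the lists. Unadjusted p under 0.05 was met by 429 genes there, by 518 with voom, which called 0, and by 344 to 440 without single libraries, where 0 to 0 were called. The Cnr1 difference was −0.17 with voom, and the cause was not tested. Without single libraries it ran from −0.60 to 0.57, and was −0.30, −0.15 and −0.04 without Recurring replicates 2 and 3 and Day 0 replicate 4. The ranges without single libraries were −0.07 to 0.37 for Faah, 0.36 to 0.86 for Mgll, −0.02 to 2.92 for Napepld, −0.59 to −0.13 for Dagla and −2.08 to 1.60 for Daglb, which was 0.50 without Recurring replicate 2 or 4. No member's adjusted p was below 0.93 in any setting. Under the other scalings, filters, pseudocounts and the Xist term the members kept their signs. The count of list genes with an unadjusted p under 0.05 was 0 to 0 without single libraries for the other endocannabinoid genes, 0 to 1 for the Gq list and 0 to 1 for the CB1 list. With voom it was 1 for the Gq list, Homer1 at −2.31. The intervals of Napepld and Daglb are wide, so even large changes could not be detected.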

Other observations

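The balance between the enzyme that makes 2-arachidonoylglycerol and the one that breaks it down was also set side by side within each library. The log2 level of Dagla minus that of Mgll was 0.01, 0.04, −0.56 and 1.76 in Recurring replicates 1 to 4 and 1.48, 1.0, 1.60 and 0.65 in Day 0 replicates 1 to 4. The mean was 0.31 ± 1.0 in Recurring and 1.18 ± 0.44 in Day 0 cells (SD, n = 4 each). Recurring replicates 1 to 3 lay below every Day 0 library and Recurring replicate 4 lay above every one, so the groups overlapped. For the breakdown enzymes of the 2 lipids, the log2 level of Faah minus that of Mgll was 2.25 ± 0.76 in Recurring and 2.61 ± 0.84 in Day 0 cells (SD, n = 4 each). These differences set counts of genes of unlike length side by side, so their size between genes has no meaning of its own, and no test was made.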
